A study of Bos taurus with 11 samples.

Results

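The splicing factors described here are 75 genes, represented by 225 of the 43653 probes of an Agilent bovine array, whose array names start with SNRP, SF3A, SF3B, PRPF, LSM and a digit, SRSF or SFRS, or HNRNP or HNRP. The array holds 24929 named genes in all. The groups have 12 SNRP, 3 SF3A, 6 SF3B, 13 PRPF, 10 LSM, 11 SRSF and 20 HNRNP genes, and each gene is read from its brightest probe by the mean over the arrays. The SRSF group includes PNISR, which the array still lists under an old SFRS name.

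Introns are removed from messenger RNA precursors by the spliceosome, which is built from small nuclear RNAs and their proteins. SNRP genes encode the Sm proteins that form a ring on these RNAs and proteins that belong to single particles, LSM genes encode the related rings of U6 RNA and of mRNA decay, SF3A and SF3B proteins hold the U2 particle at the branch site, and PRPF proteins act mainly in the U4/U6 and U5 particles. SRSF proteins and the abundant HNRNP proteins bind the precursor itself and promote or repress the use of particular exons, often against each other, and they take part in the changes of splicing that accompany lymphocyte activation.

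Peripheral blood mononuclear cells were taken from 5 female Ladakhi cattle, a native breed of the high-altitude Ladakh region, and from 6 female Sahiwal cattle, a breed of low arid and semi-arid land, sampled in the basal state. The labels give no age, genetic alteration or treatment for either breed. Each animal was hybridised to its own 1-colour array. Every slide held a single breed, the breeds were read on different scanners, and breed, altitude, slide and scanner cannot be told apart. Nor can fewer cells of a type and less RNA per cell in such mixed samples.

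A level below is the log2 signal of a probe minus a reference point of its own array, the 75th percentile over the 2705 probes that were well above background on all 11 arrays. It can be compared between animals at 1 probe but not between probes. Differences are Ladakhi minus Sahiwal, and adjusted p-values come from limma with Benjamini-Hochberg adjustment over the 4048 probes for which both breeds had 4 or more arrays with a spot well above background, called measured below.

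The 4 probes below show what the array reads of these genes, chosen because their sequence or their difference bears on results given further down. They are credited to the array's annotation on HGSC Btau_3.1, are written from 5′ to 3′, and capitals mark every TCTCGN on either strand. On the printed strand TCTCGN is a serine codon followed by an arginine codon when read in frame. A match on the opposite strand is not that codon pair.
SRSF6, chr13:72853916-72853975, plus strand: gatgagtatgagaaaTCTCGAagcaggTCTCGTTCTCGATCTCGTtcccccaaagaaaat
SRSF11, chr3:80471151-80471586, minus strand: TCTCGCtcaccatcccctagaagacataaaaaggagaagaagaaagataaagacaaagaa
SRSF11, chr3:80489705-80489764, minus strand: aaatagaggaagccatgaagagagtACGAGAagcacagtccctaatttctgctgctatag
SF3B1, chr2:90152027-90153771, minus strand: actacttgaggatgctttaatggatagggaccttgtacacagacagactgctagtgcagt

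SR proteins are named for a tail of alternating arginine and serine residues. The SRSF6 probe held TCTCGN at 4 places on 1 strand, the only probe of the 43653 with at least 4. The motif occurred on either strand in 4 of 40 SRSF probes (10.0%), in 1 of 75 HNRNP probes (1.33%) and in 1900 of all probes (4.35%). Over all 225 splicing factor probes it occurred in 9 (4.0%), near the share of all probes. These counts pool both strands, and the second SRSF11 probe matches on the opposite strand only. The first SRSF11 probe and the SF3B1 probe are 60 bases long but cover 436 and 1745 bases of the genome, so each joins sequence from separate stretches. The SF3B1 probe holds no match.

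On the arrays, detection set the limits of the comparison. Between 64 and 105 of the 225 splicing factor probes were well above background in a Ladakhi animal, against 190 to 206 in a Sahiwal animal. Over the whole array 12.3% ± 2.6 of spots were well above background in Ladakhi (SD, n = 5) and 43.0% ± 3.1 in Sahiwal (SD, n = 6), and the reference points lay at signals of 790.6 to 1834 in Ladakhi and 6449 to 15176 in Sahiwal. No spot was saturated on the Ladakhi arrays, and 71 to 228 were on the Sahiwal arrays, none of them in the brightest probe of a splicing factor gene measured in both breeds. The number of arrays limits the precision.

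**Figure D1:**
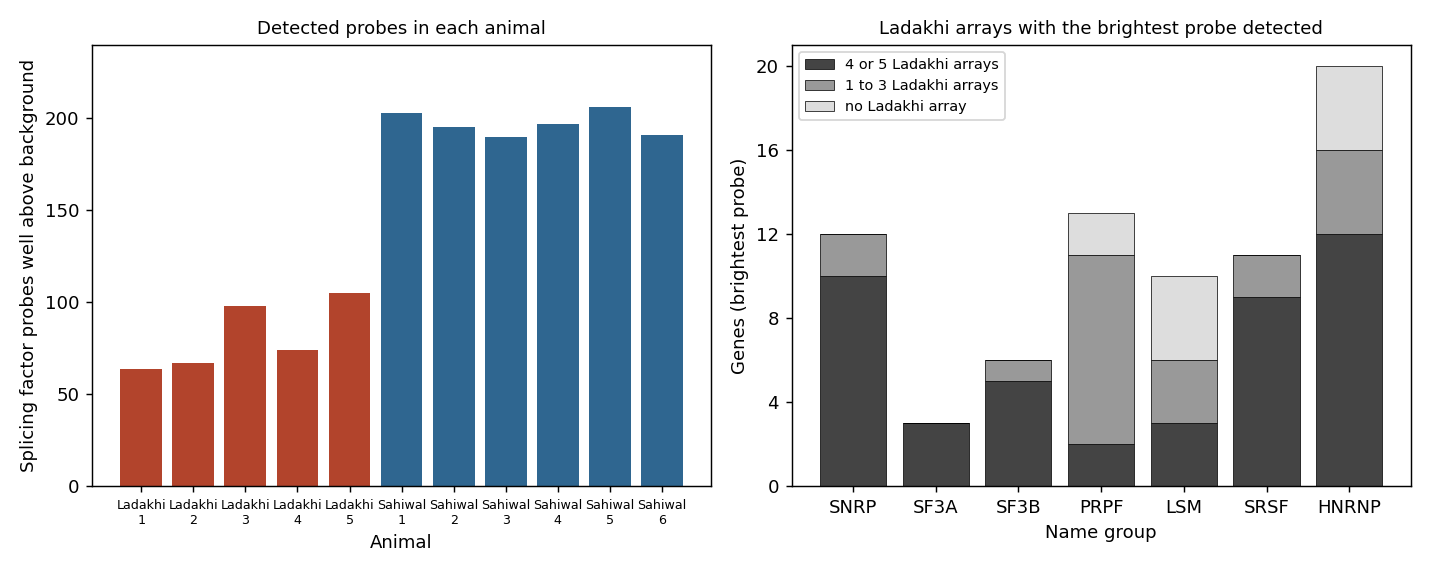
Left, splicing factor probes well above background in each animal, Ladakhi in red and Sahiwal in blue. Right, genes of each name group by the number of Ladakhi arrays on which the brightest probe was well above background. The highest Ladakhi bar (105) is below the lowest Sahiwal bar (190), and PRPF and LSM are the groups with the fewest genes on 4 or 5 Ladakhi arrays relative to their size.

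All 75 brightest probes were detected on all 6 Sahiwal arrays. In Ladakhi, 44 were detected on 4 or 5 of 5 arrays and so were measured in both breeds, 21 on 1 to 3 arrays, and 10 on none. The share measured differed by name group: 2 of 13 PRPF genes and 3 of 10 LSM genes, but 10 of 12 SNRP, 3 of 3 SF3A, 5 of 6 SF3B, 9 of 11 SRSF and 12 of 20 HNRNP genes. Of all 11166 genes on the array that were detected on at least 4 Sahiwal arrays, 27.4% were measured in both breeds. The share was 58.7% for the splicing factors together, 30.0% for LSM and 15.4% for PRPF. No test of these shares was made.

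Of the 44 genes measured in both breeds, 2 were higher and 13 were lower in Ladakhi cells, and 29 did not pass the threshold. Among all 3056 genes measured in both breeds 32.1% passed it, 18.4% as higher and 13.6% as lower. For the splicing factors the shares were 34.1% in all, 4.55% higher and 29.5% lower, so that the total lay near that of all genes, with fewer higher and more lower calls. Their median difference was -0.59, against -0.01 over all measured genes, with 11 differences above 0 and 33 below. Detection on at least 4 Ladakhi arrays was needed for a gene to be counted, and these shares describe the measured genes only.

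**Figure D2:**
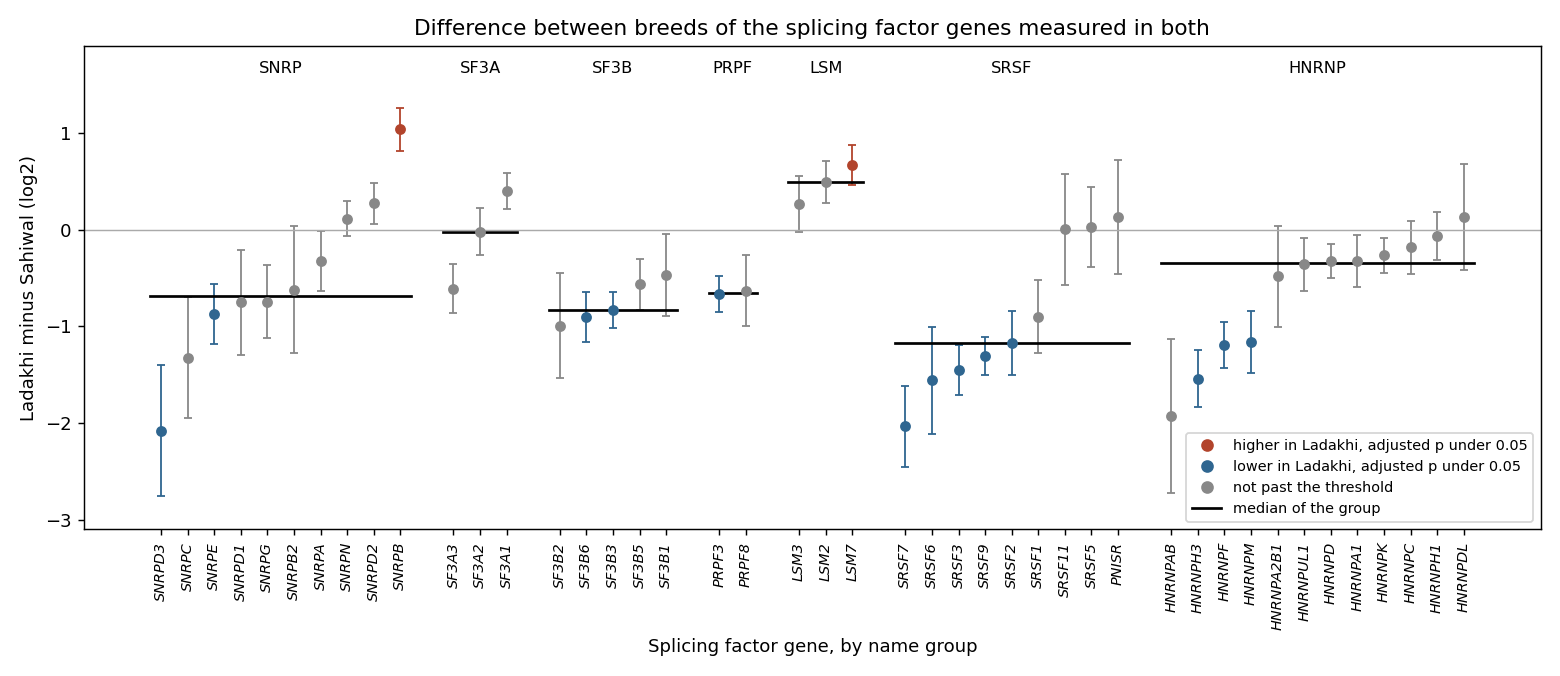
Ladakhi minus Sahiwal difference (log2, vertical axis) of the 44 splicing factor genes measured in both breeds, by name group. Points are differences, bars their standard errors, and black lines group medians. The medians run from -1.17 in SRSF to 0.49 in LSM, and the genes past the threshold above 0 are SNRPB and LSM7.

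The median level over the 44 genes was between -1.69 and -1.39 in the 5 Ladakhi animals and between -1.19 and -0.67 in the 6 Sahiwal animals, and these ranges did not overlap. At 11 of the 44 genes (25.0%) every Ladakhi animal lay on the same side of every Sahiwal animal, against 21.3% of all measured genes. The median SD of a splicing factor between arrays of 1 breed was 0.54 in Ladakhi and 0.35 in Sahiwal. Over all measured genes these medians were 0.52 in Ladakhi and 0.39 in Sahiwal. At 18 of the 44 genes 1 Ladakhi spot was not well above background, and its value enters the Ladakhi SD, while every Sahiwal array was detected. The SDs therefore do not measure the spread between animals alone.

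RNA of the Sm proteins, which form the ring common to most spliceosomal particles, differed in both directions. Of the 10 SNRP genes measured, which include genes of U1 and U2 proteins, 1 was higher, 2 were lower, and 7 did not pass. SNRPB, which encodes SmB, was at 1.09, 1.19, 1.18, 1.59 and 1.07 in Ladakhi animals 1 to 5, and at 0.24 (-0.43 to 0.56) in Sahiwal, given here and below as the median with the lowest and highest of 6 animals. No Ladakhi animal overlapped the Sahiwal range. The difference at SNRPB (chr13:53233308-53233367) was 1.04 (SE 0.22, adjusted p = 0.00405), a fold of 2.05 and the highest of the 44.

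SNRPE, another protein of the ring, was at -3.27, -2.75, -2.60, -1.76 and -1.62 in the Ladakhi animals, against -1.40 (-2.05 to -1.21) in Sahiwal, with 2 Ladakhi animals inside the Sahiwal range. It was lower by the threshold (difference -0.87, SE 0.31, adjusted p = 0.0483; chr16:631717-631775), but lost the call under 6 of 15 other ways of processing and without any of 8 of the 11 animals, 1 at a time. SNRPD3, which encodes SmD3, had the lowest difference of the 44 genes. It was at -1.84, -1.43, -2.06, -5.73 and -1.31 in Ladakhi and at -0.54 (-0.69 to 0.24) in Sahiwal, and the breeds did not overlap.

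The SNRPD3 value of animal 4 is the value that the software assigns to undetected spots, shared by 30518 probes of that array. The difference was -2.08 (SE 0.67, adjusted p = 0.0329; chr17:74728094-74728153) with it and -1.27 without that animal (adjusted p = 0.00303), and the call was lost without any of Sahiwal animals 1, 2, 3, 5 and 6. A second SNRPD3 probe that shares 47 bases with the first was detected on all arrays. It read -2.45, -2.46, -2.94, -2.65 and -2.37 in Ladakhi and -0.88 (-1.17 to -0.39) in Sahiwal, so animal 4 was not apart there. Its difference was -1.73 (SE 0.20, adjusted p = 1.1e-04).

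The SNRP genes that did not pass ranged from -1.32 for SNRPC, a U1 protein, to 0.27 for SNRPD2, whose 2 overlapping probes differed by 0.27 and 0.33 between breeds. SNRPC moved to -0.55 without Ladakhi animal 1, again at the value for undetected spots, and then passed the threshold (adjusted p = 0.0445). SNRPD1, which encodes SmD1, had a difference of -0.75 with Ladakhi animal 4 and -0.10 without it. SNRPB2, a U2 protein, had -0.62 with that animal and 0.13 without it. SNRPG of the Sm ring had -0.75 (adjusted p = 0.158, with 5 Sahiwal animals, since 1 spot had an outlier flag), SNRPA of the U1 particle -0.32 (adjusted p = 0.454), and SNRPN, a relative of SNRPB, 0.11 (adjusted p = 0.659). Genes for proteins of 1 ring thus differed unequally in RNA between breeds at these probes. SNRPB, read by 1 probe, and SNRPD3 were past the threshold on opposite sides.

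Genes of the SF3A and SF3B proteins, which bind the branch site with the U2 particle, gave no call above 0. None of the 3 SF3A genes passed the threshold. SF3A1 was at -1.26, -0.97, -1.18, -1.43 and -1.49 in Ladakhi and -1.71 (-1.88 to -1.39) in Sahiwal (difference 0.40, SE 0.19, adjusted p = 0.119). SF3A3 was at -2.79, -2.40, -2.81, -3.55 and -2.93 in Ladakhi, with animal 4 undetected, and -2.19 (-2.78 to -1.87) in Sahiwal (difference -0.61, SE 0.25, adjusted p = 0.0821). The breeds overlapped at both, and SF3A2 had a difference of -0.02 (adjusted p = 0.955).

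All 5 measured SF3B genes had differences below 0, and 2 of them passed. SF3B3 was at -1.67, -1.33, -1.38, -1.16 and -1.17 in Ladakhi and at -0.57 (-0.74 to -0.23) in Sahiwal, without overlap. Its difference was -0.83 (SE 0.19, adjusted p = 0.00618; chr18:929693-929752). A second SF3B3 probe differed by 0.25 in the opposite direction without passing (adjusted p = 0.381), and the mean of both probes did not pass (-0.29, adjusted p = 0.275).

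SF3B6, the subunit that contacts the branch site adenosine, was at -1.85, -1.83, -1.42, -1.06 and -0.98 in Ladakhi and -0.56 (-1.19 to -0.09) in Sahiwal, with 2 Ladakhi animals inside the Sahiwal range. It was lower in Ladakhi (difference -0.90, SE 0.26, adjusted p = 0.0187; chr11:77158298-77158357), but lost the call under 3 of 15 other ways of processing, among them the percentile taken over all probes and the authors' value table. SF3B2 was at -0.98, -0.90, -1.0, -4.11 and -2.96 in Ladakhi and -0.97 (-1.34 to -0.74) in Sahiwal (difference -0.99, SE 0.54, adjusted p = 0.182). Of the Ladakhi animals, 3 matched the Sahiwal range and 2 lay below it, with animal 4 undetected. Without animal 4 the SF3B2 difference was -0.46 (adjusted p = 0.370). SF3B1, the large scaffold of the complex, was at -0.66, 0.85, 0.40, -1.52 and 0.31 in Ladakhi and 0.08 (-0.11 to 1.09) in Sahiwal. Its difference of -0.47 (SE 0.42, adjusted p = 0.418) did not pass, nor did that of SF3B5 (-0.56, adjusted p = 0.125, again with 5 Sahiwal animals).

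Most PRPF genes were too dim in Ladakhi for a comparison. Only PRPF3 and PRPF8 of the 13 PRPF genes were measured in both breeds. PRPF3, a U4/U6 protein, was at -3.22, -2.99, -3.16, -2.94 and -2.68 in Ladakhi and -2.34 (-2.59 to -1.93) in Sahiwal, without overlap (difference -0.67, SE 0.19, adjusted p = 0.0162; chr3:21848905-21848964). It lost the call under 2 of 15 other ways of processing, in 1 of them, a different background correction, at -0.34 (adjusted p = 0.139).

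PRPF8, the scaffold of the catalytic centre, was at -0.05, 0.76, 0.53, 0.97 and 0.64 in Ladakhi. Only 2 Sahiwal animals had a value, 1.53 and 0.87, because the spots of the other 4 carried an outlier flag and were left out. The difference of -0.63 (SE 0.36, adjusted p = 0.225) rests on those 2 animals and did not pass. Of the other PRPF genes, 9 were detected on 1 to 3 Ladakhi arrays and PRPF38A and PRPF38B on none.

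LSM was the name group whose measured genes all had differences above 0, on 3 of its 10 genes. LSM7 was at -1.42, -1.36, -1.67, -0.94 and -1.58 in Ladakhi and -2.17 (-2.28 to -1.65) in Sahiwal, with 1 Ladakhi animal inside the Sahiwal range. It was higher in Ladakhi (difference 0.66, SE 0.21, adjusted p = 0.0272; chr7:19961729-19961788), and the call was lost without Sahiwal animal 2, 3 or 6. LSM3 was at -4.20, -2.64, -3.60, -3.38 and -3.36 in Ladakhi, with animal 1 undetected, and -3.57 (-4.33 to -3.32) in Sahiwal (difference 0.27, SE 0.29, adjusted p = 0.503). LSM2 was at -2.18, -1.99, -1.87, -1.35 and -2.06 in Ladakhi and -2.39 (-2.86 to -2.07) in Sahiwal (difference 0.49, SE 0.22, adjusted p = 0.104).

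LSM7, LSM3 and LSM2 all belong to the U6 ring, and the breeds overlapped at each. A further ring member, LSM6, was detected by its brightest probe on 3 Ladakhi arrays only. A dimmer LSM6 probe, detected on 4 of them, was at -3.44, -3.01, -3.12, -3.21 and -2.91 in Ladakhi and -2.35 (-2.80 to -2.04) in Sahiwal, which did not overlap, and was lower (difference -0.78, SE 0.20, adjusted p = 0.0108). The other measured LSM6 probe shares 30 bases with it and did not pass (-0.34, adjusted p = 0.288). The array's annotation places the probe that passed on chromosome 2, and the one that did not on chromosome 17 with the brightest LSM6 probe.

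At the brightest probes, genes of SR proteins had the lowest median difference of the name groups, -1.17 over 9 measured genes, with 5 lower and none higher by the threshold. Over all measured probes the SRSF median was -0.58, with 5 lower and 1 higher of 14. By that measure SNRP (-0.68), PRPF (-0.65) and SF3B (-0.62) had lower medians, so the rank of SRSF depends on the choice of probe. SRSF9 was at -1.69, -1.22, -1.22, -1.01 and -1.25 in Ladakhi and 0.11 (-0.33 to 0.30) in Sahiwal, the lowest adjusted p of the splicing factor genes at their brightest probes (difference -1.31, SE 0.20, adjusted p = 0.000517; chr17:66029955-66030014). SRSF3, which also acts in mRNA export, was at -2.59, -2.65, -2.13, -1.91 and -1.69 in Ladakhi and -0.78 (-1.20 to -0.16) in Sahiwal (difference -1.45, SE 0.26, adjusted p = 0.00149; chr23:10806893-10806952). SRSF7 was at -2.39, -2.98, -1.56, -4.19 and -1.77 in Ladakhi and -0.60 (-0.85 to -0.10) in Sahiwal (difference -2.04, SE 0.41, adjusted p = 0.00312). The breeds did not overlap at any of these 3 genes. A second SRSF3 probe did not pass (-0.38, adjusted p = 0.199).

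Detection in animal 4 bears on the size of the SRSF7 value, since that spot was not above background. Without the animal the difference was -1.63 (adjusted p = 0.00184). SRSF2 was at -3.82, -1.97, -2.44, -2.52 and -1.89 in Ladakhi and -1.32 (-1.91 to -1.01) in Sahiwal, with animal 1 undetected and animal 5 inside the Sahiwal range, and was lower (difference -1.17, SE 0.33, adjusted p = 0.0174).

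SRSF6, an exon enhancer binder like the other SR proteins, was at -1.66, -0.71, -1.41, -4.43 and -2.41 in Ladakhi and -0.61 (-1.12 to 0.04) in Sahiwal. Ladakhi animal 2 lay inside the Sahiwal range and animal 4 was undetected. The difference of -1.56 (SE 0.55, adjusted p = 0.0472) was past the threshold as lower. It moved to -0.98 (adjusted p = 0.0488) without Ladakhi animal 4, and the call was lost without any of 8 other animals and under 4 other ways of processing.

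The SRSF6 probe with the serine and arginine codons, printed above, did not pass. Detected on 4 Ladakhi arrays only, it was at -2.24, -4.57, -2.62, -2.44 and -2.28 in Ladakhi and -2.42 (-2.91 to -1.53) in Sahiwal. Of the Ladakhi animals, 4 lay inside the Sahiwal range. Its difference was -0.59 (SE 0.43, adjusted p = 0.318), and another SRSF6 probe gave -0.58 (adjusted p = 0.316).

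The remaining SR genes spread from -0.90 for SRSF1 (adjusted p = 0.0865) to 0.13 for PNISR, a nuclear protein rich in serine and arginine. PNISR was at -2.62, -0.78, -2.02, -4.35 and -2.96 in Ladakhi, with animal 4 undetected, and -2.85 (-3.58 to -1.44) in Sahiwal. Both breeds spread widely at this gene (SE 0.59, adjusted p = 0.881). SRSF5 and the brightest SRSF11 probe had differences of 0.03 and 0.00.

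SRSF11 had 1 probe past the threshold and 2 that were not. The first printed probe was the brightest, with a difference of 0.00 (SE 0.57), and a second gave 0.23 (adjusted p = 0.612). The printed probe at chr3:80489705-80489764 was at -1.78, -2.66, -2.37, -2.37 and -2.39 in Ladakhi and -4.22 (-5.28 to -3.58) in Sahiwal. It was higher in every Ladakhi animal than in any Sahiwal animal (difference 1.98, SE 0.32, adjusted p = 8.5e-04).

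**Figure D3:**
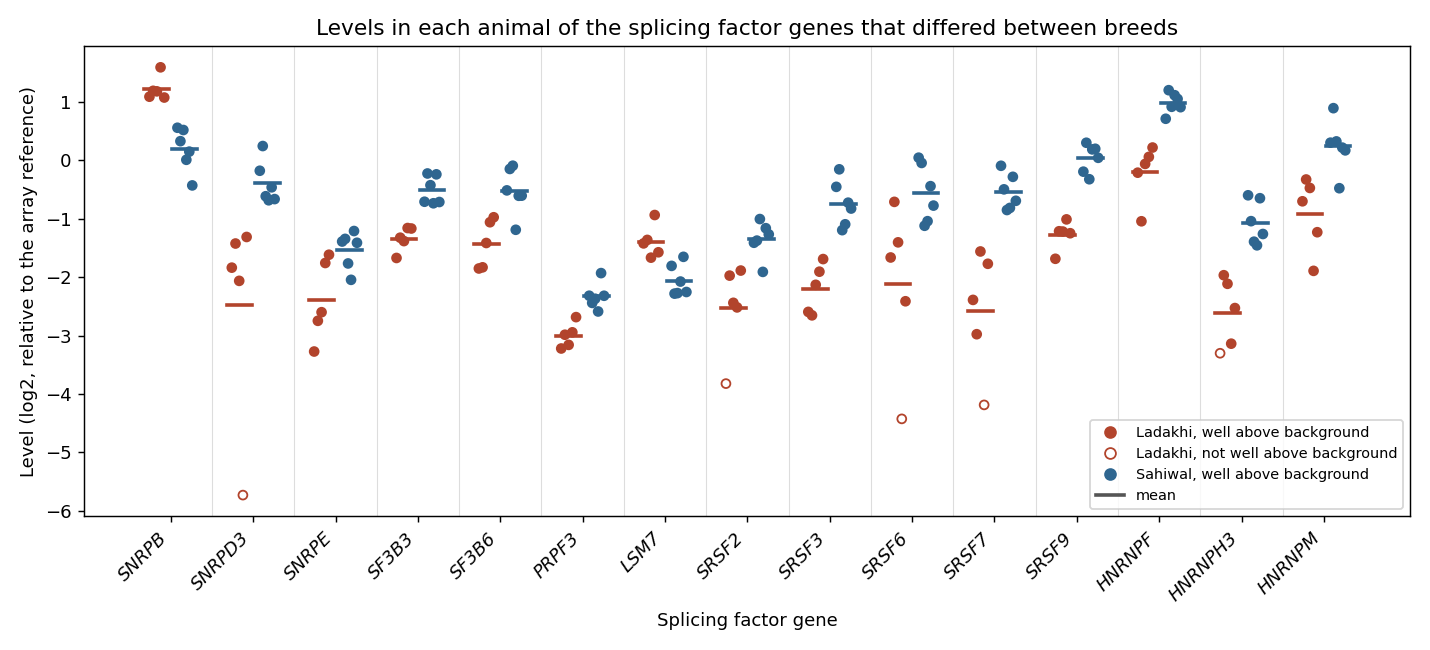
Level (log2, relative to the array's reference point) in each animal of the 15 genes past the threshold, Ladakhi in red left of Sahiwal in blue, with bars at the means. Open circles are Ladakhi spots not well above background, 1 each at SNRPD3, SRSF2, SRSF6, SRSF7 and HNRNPH3. SNRPB and LSM7 have the higher Ladakhi means.

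Heterogeneous nuclear ribonucleoproteins were the largest group, and 3 of the 12 measured genes were lower, none higher. HNRNPF, which binds runs of guanine, was at -0.21, -1.04, -0.06, 0.06 and 0.22 in Ladakhi and 0.98 (0.71 to 1.20) in Sahiwal, without overlap (difference -1.19, SE 0.24, adjusted p = 0.00281; chr28:12500595-12500654). HNRNPM was at -0.70, -0.33, -0.47, -1.89 and -1.23 in Ladakhi and 0.26 (-0.48 to 0.89) in Sahiwal, with 2 Ladakhi animals inside the Sahiwal range (difference -1.16, SE 0.32, adjusted p = 0.015; chr7:15558561-15558620). HNRNPH3, a relative of HNRNPF, was at -3.30, -1.97, -2.11, -3.14 and -2.53 in Ladakhi, with animal 1 undetected, and -1.15 (-1.46 to -0.60) in Sahiwal, again without overlap (difference -1.54, SE 0.29, adjusted p = 0.00218).

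HNRNPAB had the lowest difference of its group and did not pass. It was at -0.19, 0.11, 0.00, -4.93 and 0.17 in Ladakhi and 1.07 (0.46 to 1.22) in Sahiwal. In Ladakhi, 4 animals lay just below the Sahiwal range and animal 4, undetected, far below it. The difference was -1.93 (SE 0.79, adjusted p = 0.0833), and without animal 4 it was -0.94 and passed (adjusted p = 0.00507). A second HNRNPAB probe, detected on all Ladakhi arrays, gave 0.22 (adjusted p = 0.624).

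HNRNPDL had the highest difference of the group, 0.13 (SE 0.55, adjusted p = 0.871). It was at -2.05, -0.11, 0.04, -1.13 and -0.14 in Ladakhi and -0.79 (-2.54 to 0.58) in Sahiwal, a range that held every Ladakhi animal. HNRNPA1, HNRNPD and HNRNPK, known for shuttling between nucleus and cytoplasm, had differences of -0.33, -0.33 and -0.26 at their brightest probes, none past the threshold. Neither did HNRNPA2B1 (-0.48), HNRNPUL1 (-0.36), HNRNPC (-0.18) or HNRNPH1 (-0.06) pass. Dimmer HNRNPH1 probes gave -1.24 (adjusted p = 0.115) and -1.94 (adjusted p = 0.0618), also short of the threshold.

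A second HNRNPK probe did pass. It shares 31 bases with the brightest one and was at 0.84, 0.92, 0.81, 0.63 and 1.13 in Ladakhi and 1.85 (1.75 to 2.14) in Sahiwal (difference -1.02, SE 0.17, adjusted p = 9.6e-04), with 1 Sahiwal spot saturated. The breeds did not overlap there.

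**Figure D4:**
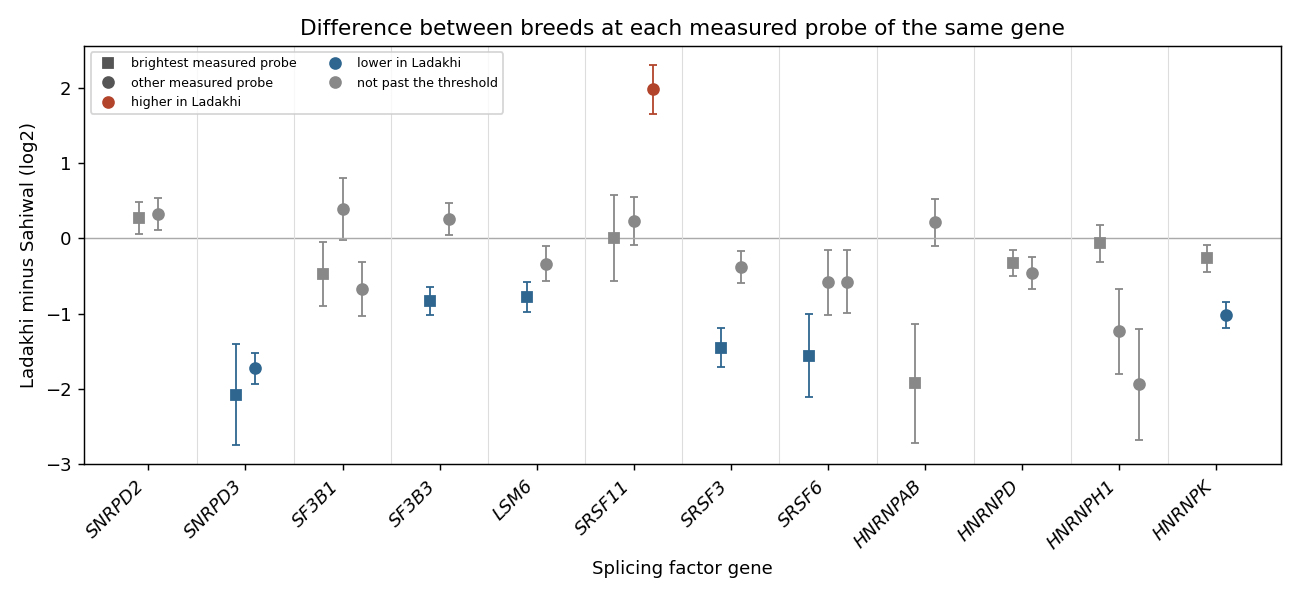
Ladakhi minus Sahiwal difference (log2) with its standard error at the measured probes of 12 of the 13 splicing factor genes with at least 2 such probes. Squares are each gene's brightest measured probe and circles the others. Probes of SF3B1, SF3B3 and HNRNPAB lie on both sides of 0, and the SRSF11 probes run from 0.00 to 1.98.

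In all, 13 splicing factor genes had at least 2 measured probes. At 3 of them, SF3B1, SF3B3 and HNRNPAB, the probes differed in sign. The printed SF3B1 probe gave 0.39 (SE 0.41, adjusted p = 0.499), against -0.47 and -0.68 at the other probes, and no gene had probes called in both directions. Over all 63 measured probes, 3 were higher (4.76%) and 17 lower (27.0%), in all 31.7%. Of all 4048 measured probes 18.8% were higher and 14.0% lower, in all 32.8%.

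Position along the gene went with detection. For 59 splicing factor genes with at least 2 probes on 1 strand of a chromosome, the probe nearest the 3′ end was measured in both breeds at 27 (45.8%), and 27 of the 145 other probes were (18.6%). On at least 4 Sahiwal arrays 56 of the 59 (94.9%) and 124 of the 145 (85.5%) were detected. Across all 10489 such genes the measured shares were 16.5% of the probes nearest the 3′ end and 7.16% of the others. The RNA was amplified from a primer with a T7 promoter, and the part of labelling in these shares was not tested.

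The 21 genes detected on 1 to 3 Ladakhi arrays included SNRPA1, SNRPF, SF3B4, PRPF4, PRPF4B, PRPF6, PRPF18, PRPF19, PRPF31, PRPF39, PRPF40B, LSM1, LSM4, LSM6, SRSF4, SRSF10, HNRNPA3, HNRNPL, HNRNPR and HNRNPUL2, and none of the 21 was tested at its brightest probe. Dimmer probes were tested at LSM6, as given above, and at LSM4 of the U6 ring (0.22, SE 0.21, adjusted p = 0.443). HNRNPL, which binds CA-rich RNA and regulates exons of the leukocyte gene PTPRC, was at -3.39, -5.34, -2.68, -2.23 and -1.82 in Ladakhi, with 2 animals undetected, and -0.58 (-1.24 to 0.56) in Sahiwal, without overlap. PRPF19, the ubiquitin ligase of the PRP19 complex, was at -2.43, -4.17, -4.94, -1.38 and -2.19 in Ladakhi and -1.95 (-2.82 to -1.27) in Sahiwal, where 3 Ladakhi animals lay inside the Sahiwal range. Both were chosen as examples after their values were seen.

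A total of 10 genes were well above background on every Sahiwal array and on no Ladakhi array. For these a bound was taken between the Sahiwal mean and the mean, over the Ladakhi arrays, of the lowest detected level or of the probe's own level where that was higher. Only HNRNPU and LSM5 gave a bound above 1. HNRNPU, which organises chromatin as well as binding RNA, averaged -2.44 ± 0.28 in Sahiwal (SD, n = 6), and the bound was 2.23-fold lower in Ladakhi (measured mean -4.54). The bound was not tested, and the 10 genes were picked for being undetected in Ladakhi. Over the whole array, 5544 of 24929 genes were detected on at least 4 Sahiwal arrays and on no Ladakhi array. For LSM5, of the U6 ring, the bound was 1.01-fold. Its Sahiwal levels (-4.05 to -2.96) lay on both sides of the Ladakhi limit of -3.61, so no difference is drawn from that bound. At the other 8 genes, HNRNPA0, HNRNPH2, HNRNPLL, LSM10, LSM12, LSM14A, PRPF38A and PRPF38B, the Sahiwal mean did not exceed the Ladakhi limit, and no difference could be detected.

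Splicing genes outside the 75 had about as many higher as lower calls. Of 128 such genes on the array in 7 lists, 53 were measured, 11 were higher, 10 were lower, and the median difference was -0.22. The higher and lower shares, 20.8% and 18.9%, stand beside 18.4% and 13.6% of all measured genes. No test compares these genes with the 75.

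Of 5 measured genes of 3′ splice site recognition, 2 were higher and 2 lower. The lower ones were U2AF1, the small subunit of U2AF (-1.62, adjusted p = 0.00922), and PHF5A, an SF3b subunit with a name outside the rule (-1.31, adjusted p = 0.0496). The higher ones were PUF60 (0.99, adjusted p = 0.0117) and U2AF2 (0.97, adjusted p = 0.035), so U2AF1 and U2AF2 were called in opposite directions. Of 11 measured U1, U5 and tri-snRNP genes 2 were higher and 2 lower, with TIA1, a helper of U1 binding, at 1.85 (adjusted p = 0.0165) and SNRNP70, a U1 protein, at -1.27 (adjusted p = 0.00943). Of 7 measured genes of the PRP19 complex and catalytic step 2 were higher and 2 lower, with SNW1 at -1.18 (adjusted p = 0.0233) and ISY1 at 1.11 (adjusted p = 0.00207). These 3 lists were split evenly.

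SR related proteins and SR kinases had 4 genes higher and 1 lower of 11 measured, led by RBM39 at 2.09 (adjusted p = 0.00464) and RBM25 at 1.43 (adjusted p = 0.00722), both RNA-binding proteins with a serine and arginine rich region. Other RNA-binding regulators had 1 higher and 1 lower of 11, NONO of paraspeckles at 0.75 (adjusted p = 0.0096) and EWSR1 at -1.02 (adjusted p = 0.00615). Exon junction and export genes had none higher and 2 lower of 7, CASC3 at -0.90 (adjusted p = 0.0201) and RBM8A at -0.64 (adjusted p = 0.0314), and the 1 measured gene of snRNP assembly did not pass. Higher calls thus stood beside lower ones in 5 of the 7 lists.

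The cells carried markers of mononuclear blood cells in both breeds, and some marker sums moved with breed. A sum is the log2 of the added linear levels of a list's brightest probes, with undetected markers included. It follows the brightest of these probes most and does not measure the number of cells. PTPRC, CD53 and LCP1, expressed in leukocytes generally, were lower in Ladakhi at 3 of 3 genes (median difference -1.39), and their summed level was 0.50 to 1.49 in Ladakhi and 1.86 to 2.83 in Sahiwal. The sum of 6 monocyte markers was 1.11 to 1.77 in Ladakhi and 2.09 to 3.54 in Sahiwal, with LYZ and SPI1 lower, FCER1G higher (1.82, adjusted p = 0.0143) and CD68 detected on no Ladakhi array. The sums of 7 T cell markers, 0.46 to 1.97 in Ladakhi and 0.01 to 1.29 in Sahiwal, and of 6 B cell markers, 1.21 to 1.60 in Ladakhi and 0.31 to 1.37 in Sahiwal, overlapped. Among the measured markers, CD2 of T cells (2.46, adjusted p = 6.3e-05) and BLK of B cells (1.08, adjusted p = 0.00388) were higher, while CD3D, LCK and CD79A did not pass, and TRAT1, CD79B and PAX5 were detected on no Ladakhi array.

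Sums for NK cells (5 markers, -0.37 to 1.11 in Ladakhi and -1.90 to 0.22 in Sahiwal), neutrophils (6 markers, 0.85 to 2.27 in Ladakhi and 1.96 to 4.13 in Sahiwal), red cells (5 markers, -1.59 to -0.81 in Ladakhi and -3.64 to 0.69 in Sahiwal) and platelets (3 markers, 0.78 to 1.22 in Ladakhi and -2.01 to 2.13 in Sahiwal) overlapped between breeds, and S100A8 of neutrophils was lower (-2.20, adjusted p = 0.00558). The NK markers KLRD1 and NCR1, the neutrophil markers CSF3R and CXCR2, and the red cell markers AHSP, HBA and SLC4A1 were on no Ladakhi array. The part of cell composition in the splicing factor differences was not tested.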

How the data were processed

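The deposited intensity values are scanner output, per the file headers from Agilent Feature Extraction version 12.0.1.1 on an Agilent scanner for Ladakhi and version 9.5.3.1 on an Axon GenePix scanner for Sahiwal. The processed signal is Cy3 intensity after background subtraction, with a surrogate value for undetected spots. The authors also deposited a log2 value table centred per probe. Its scale between arrays is not known, its column medians run from -0.73 to 2.31, and its 11 columns each follow an array of their breed other than their namesake, so it served as an alternative for the breed comparison only. Animal numbers are those of the scanner files.

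Control spots and 294 spots with an outlier flag were left out, spots of a probe were averaged, and log2 signals were set against the 75th percentile given in the report, because under 50% of probes were detected. The test of Ladakhi against Sahiwal used lmFit and two-sided eBayes statistics of limma 3.58.1 (R 4.3.3), and calls needed an adjusted p under 0.05. The script was tested on simulated data. Gene symbols of 199 of the 225 probes matched the ARS-UCD2.0 gene table by accession, used for names only, and 5 genes were renamed. Coordinates are those of the probes on HGSC Btau_3.1, and the files name no exon.

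The genes and lists were chosen with earlier results of these data known. The genes named are the measured genes past the threshold on all arrays, the highest and lowest difference in each name group, genes with probes of opposite sign, and the 2 largest called differences in each further list, with other genes as examples. The labels number animals within each breed only. Deviations of same-numbered animals correlated between -0.05 and 0.02, so the numbers do not pair the samples. Replicate arrays correlated between 0.63 and 0.79 in Ladakhi and 0.89 and 0.95 in Sahiwal, and no 2 arrays held equal values. Separate animals are labelled, with 1 array each. The p-values set the breed difference against the spread between arrays of a breed, which does not cover what differs between the scanners. The results of 2 genes and 1 further probe are not reported here.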

Additional observations from a re-analysis of the deposited data

Results flagged for a closer look

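At some genes a single animal stood far from the other animals of its breed, by the ratio of its gap to the group's whole range (Dixon's 95% limit). This held in 11 of 88 groups of a gene and a breed. PRPF8 in Sahiwal, with 2 values, is counted in the 88 but is too small for the limit. Chance would mark about 1 in 20, or 4.4, if groups were normal and independent. The groups share arrays and some hold an undetected spot, so no excess over chance is read from the count. Ladakhi animal 4 was the one apart in 5 of the 11, with the highest SNRPB level (1.59) and the lowest levels of SNRPB2 (-5.73), SNRPD1 (-5.16), SNRPD3 (-5.73) and HNRNPAB (-4.93). At these 4 genes with low levels its spot was not well above background. Its array had 4653 spots well above background, within the Ladakhi range of 4243 to 6608.

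Ladakhi animal 1 was lowest for SNRPC (-5.59), animal 3 for SRSF11 (-4.51) and animal 2 for HNRNPA2B1 (-3.91), each at a spot not well above background, and animal 2 was highest for SRSF5 (-0.53). In Sahiwal, animal 1 was highest for SNRPC (-0.93) and animal 3 lowest for HNRNPC (-3.18).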

How the results depend on the processing

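The 2 higher and 13 lower calls among the 44 genes, the median of -0.59, and the 11 higher and 10 lower calls of the further splicing lists were recomputed under 14 alternatives and 11 omissions of 1 animal, and 1 alternative chosen after seeing the data, in which values not above background were set missing. That one gave a median of -0.40. Higher calls numbered 4 with quantile normalization, 4 with slide as a random block, and 4 with probes detected on 4 arrays of either breed, which admits all 75 genes (4380 higher and 3096 lower of 17866 probes) and gave 23 lower calls and 31 lower calls in the further lists. With probes detected on all arrays, 26 genes remained, with 8 lower calls and a median of -0.34. The slide block also gave 17 lower calls, at an estimated correlation within slides of -0.13. Calls rose over all probes as well, to 989 higher and 841 lower from 760 and 567, so the extra calls were not particular to the splicing factors. The normexp background gave 3 higher and 18 lower calls. Leaving out 1 animal gave 1 to 2 higher calls, 10 to 14 lower calls, a median of -0.65 to -0.45, and 9 to 13 higher and 7 to 11 lower calls in the further lists. Without Ladakhi animal 4 there were 2 higher and 14 lower calls, and without Sahiwal animal 2, 3 or 6 LSM7 was not called and 1 higher call was left. With the animal number as a replicate block, which the labels do not make a pairing, 1 higher and 10 lower calls were left (SNRPE, SF3B6, PRPF3 and LSM7 were not called), with 4 higher calls in the further lists and 520 higher and 361 lower calls over all probes. The 75th percentile over all probes and the authors' value table each gave 2 higher and 10 lower calls, among them 12 of the 15 genes.

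SNRPB, SRSF3, SRSF9, HNRNPF and HNRNPM kept their call in all 26 settings, and the genes measured on 4 Ladakhi arrays could not be tested with probes detected on all arrays. No called gene changed direction. Among uncalled genes the sign turned for SRSF11 with the percentile over all probes (-0.013), slide as a random block (-0.056), the replicate block (-0.056) and the value table (-0.01); for SF3A2 with quantile normalization (0.070), cyclic loess (0.016) and outlier spots kept (0.0050); with normexp for SNRPA (0.21), SNRPD2 (-0.090), SNRPN (-0.044), SRSF5 (-0.10) and HNRNPDL (-0.065); for SRSF5 with the replicate block (-0.12); and with undetected values missing for SNRPB2 (0.13) and HNRNPA2B1 (0.093). Leaving out 1 animal gave ranges through 0 for SRSF11 (-0.21 to 0.60), SF3A2 (-0.16 to 0.18), SRSF5 (-0.20 to 0.21), PNISR (-0.31 to 0.58), HNRNPDL (-0.21 to 0.48), HNRNPH1 (-0.19 to 0.081), SNRPB2 (-0.91 to 0.13) and HNRNPA2B1 (-0.71 to 0.093). The cause of these changes was not tested. Quantile normalization, cyclic loess and normexp were centred on the median of measured probes, which removed shifts of 0.17, 0.41 and 0.27. The low signal of the Ladakhi arrays limits what can be measured: 31 of the 75 genes have no tested difference at the brightest probe and 29 have none at any probe, and slide, scanner and breed cannot be told apart.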
